A study of Saccharomyces cerevisiae with 8 samples.

Results

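The transcriptome of the H3E50A strain was set against those of 2 histone H4 mutant strains, H4K16Q and H4H18A, to ask in which genes it differed from both. The H3E50A strain was represented by 1 library, and each H4 mutant by 2. A gene was taken as a member where its level in the H3E50A library lay outside the range spanned by all 4 H4 mutant libraries, and the level was the count scaled to the size of the library (CPM). Of the 6600 features counted, 5962 had enough counts to be kept, and H3E50A lay outside the range for 3197 of them (53.6%). It was higher than every H4 mutant library in 1869 genes, which is 31.3% of the genes kept, and lower than every one in 1328 genes, which is 22.3%. The other 2765 genes lay inside the range.

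RNA was sequenced from cultures grown for 16 h in YPD at 30 degrees, in 8 libraries in all. In H3E50A the glutamate at position 50 of histone H3 is an alanine, in H4K16Q the lysine at position 16 of histone H4 is a glutamine, and in H4H18A the histidine at position 18 is an alanine. The WT strains labelled H3 (1 library) and H4 (2 libraries) carry no substitution. All strains, the WT strains included, derive from JDY86, which is MATa with the alleles his3Δ200, leu2Δ0, lys2Δ0, trp1Δ63, ura3Δ0 and met15Δ0, with HIS3 driven by the MFA1 promoter at the can1 locus (can1::MFA1pr-HIS3), with 1 of the 2 H3-H4 gene pairs deleted (hht1-hhf1::NatMX4), and with the other replaced by a synthetic pair next to URA3 (hht2-hhf2::[HHTS-HHFS]-URA3). In the strain labels of the 4 H4 libraries the histone is given as H3, and they were assigned to H4 by title and by the description of the series. The methods of the study describe the replicates as biological and prepared independently, and the labels say nothing of the cultures behind each library.

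Both H4 substitutions lie in the basic stretch of the H4 tail that the silencing protein Sir3 binds, where lysine 16 is deacetylated by Sir2, and a glutamine at this position mimics the acetylated lysine. Residue 50 of H3 lies in the helix just before the histone fold, away from that tail. In yeast, Sir2, Sir3 and Sir4 keep the silent mating cassettes HML and HMR off, and a haploid cell in which they are expressed together with its own mating-type genes behaves in part as a diploid, since the a1 and alpha2 proteins then repress haploid-specific genes and alpha2 with Mcm1 represses the a-specific genes. As glucose runs out, yeast cells lower the genes for ribosomes and growth and raise those for respiration, other carbon sources and stress protection.

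The libraries differed in depth and in make-up. H3E50A had 4256296 counts, the H4K16Q libraries 10529401 and 8645533, the H4H18A libraries 621770 and 852659, WT H3 1561683, and the WT H4 libraries 4296089 and 1196115. A count of 0 allows a level of up to 3 counts, which is 0.688 CPM in H3E50A and from 0.217 to 7.06 CPM over the 8 libraries, and this covers counting error only. Features that overlap ribosomal RNA genes took 1.88% of the counts in H3E50A, 0.254% and 0.180% in H4K16Q, and 16.3% and 33.6% in H4H18A, beside 33.9% in WT H3 and 0.990% and 21.2% in WT H4. The libraries of a strain also differed between themselves. The median absolute log2 difference of a gene between the 2 libraries was 0.61 in H4K16Q and 0.81 in H4H18A, and the median width of the range of the 4 libraries was 1.36. The part of depth, ribosomal RNA share and library differences in the results was not tested. Member counts after thinning, without ribosomal RNA features and with each H4 library left out are given at the end. The histone genes HHT1 and HHF1, deleted by the genotype, had 300 and 204 counts in H3E50A and between 12 and 4609 in the other libraries, whereas HHF2 had none in H3E50A and at most 4 elsewhere, so these counts do not check the labels and the substitutions cannot be seen in counts per gene.

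Being outside the range of 4 libraries is common with this spread. Set against the same 4 libraries, WT H3 was above the range in 16.5% of genes and below it in 13.2%. WT H4 library 1 was above in 33.4% and below in 25.4%, and WT H4 library 2 was above in 21.9% and below in 17.1%. Among the 5 mutant libraries, the highest value of a gene fell in H3E50A for 31.3% of genes, in the H4K16Q libraries for 16.5% and 17.9%, and in the H4H18A libraries for 11.5% and 22.5%. The lowest value fell in H3E50A for 22.3%, in H4K16Q for 13.6% and 12.8%, and in H4H18A for 22.1% and 24.6%. H3E50A thus held the highest value more often than any H4 mutant library, but the lowest value no more often than H4H18A library 2.

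The members were graded by their distance from the range, called the gap, on a log2 scale with a prior count of 2. The median gap was 0.49 for the genes above and -0.67 for the genes below. Genes with a gap of at least 1, a 2-fold distance from the nearest H4 mutant library, are called clear here. H3E50A was clear above the range in 340 genes (5.7%) and clear below it in 464 genes (7.78%). Without H4K16Q library 1, 550 genes were clear above. The exact 95% Poisson interval of the H3E50A count stood apart from those of all 4 H4 libraries in 815 genes above (13.7%) and 578 below (9.69%), and the gap exceeded the whole width of the H4 range in 311 genes above (5.22%) and 408 below (6.84%). These are descriptions of 1 library against 4, and no test of H3E50A, which has no second library, was run.

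**Figure D1:**
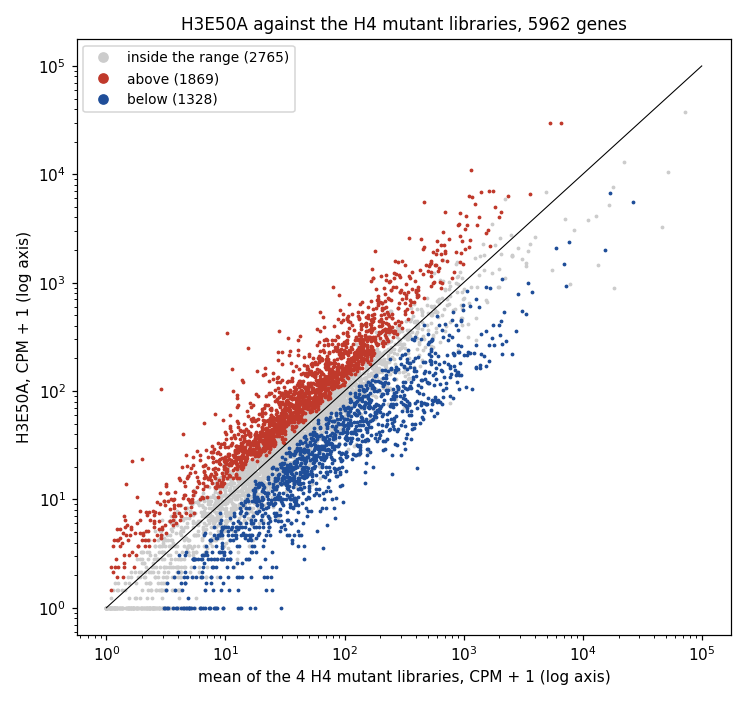
Level of each of 5962 genes in H3E50A (vertical axis, CPM + 1, log axis) against the mean of the 4 H4 mutant libraries (horizontal axis, CPM + 1, log axis). Red points are the 1869 genes above the range of the 4 libraries, blue points the 1328 below it and grey points the 2765 inside it, and both kinds of members are spread over all levels of expression.

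The genes nearest to the limit of a gap of 1 show what it separates. Just past it above were XBP1, ATG11 and YDR327W, and XBP1, a repressor of cyclin genes induced by stress, had 459 CPM in H3E50A, against 228 and 128 CPM in H4K16Q and 120.0 and 50.5 CPM in H4H18A. Just short of it were HAP4, MRPL32 and APC4. HAP4, the activating subunit of the CCAAT-binding regulator of respiration genes, had 974 CPM in H3E50A, against 316 and 394 CPM in H4K16Q and 487 and 122 CPM in H4H18A. On the lower side RPL35A, TIF1 and SHO1 were just past the limit, and RPS8A, PEA2 and ANB1 just short of it.

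The largest gaps above belonged to the a-mating genes. MFA1 and MFA2 encode the precursors of the a-factor pheromone, and positions here are those of the coding sequence in R64. MFA1 (YDR461W, chrIV:1385176-1385286) had 104 CPM in H3E50A, 4.63 and 0.595 CPM in H4K16Q and 2.35 and 0 CPM in H4H18A, beside 41.7 CPM in WT H3 and 12.7 and 27.9 CPM in WT H4. MFA2 (YNL145W, chrXIV:352414-352530) had 339.5 CPM in H3E50A, 17 and 1.34 CPM in H4K16Q and 18.8 and 0 CPM in H4H18A, beside 91.8 CPM in WT H3 and 72.4 and 110.5 CPM in WT H4. H3E50A exceeded the nearest H4 mutant library 22.5-fold for MFA1 and 18-fold for MFA2, and every WT library also stood above all 4 H4 mutant libraries. These levels rest on 455 and 1481 counts in H3E50A, and on 1 or fewer counts of MFA1 in the H4H18A libraries.

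The other genes of the a-specific list were above the range too. STE6 (YKL209C, chrXI:42423-46295), the transporter that exports a-factor, had 354 CPM in H3E50A, 52.2 and 9.22 CPM in H4K16Q and 23.5 and 22.9 CPM in H4H18A, beside 350.3 CPM in WT H3 and 141 and 402 CPM in WT H4. BAR1 (YIL015W, chrIX:322342-324105), the protease that degrades alpha-factor, had 99.5 CPM in H3E50A, 8.10 and 13.2 CPM in H4K16Q and 14.1 and 6.88 CPM in H4H18A, beside 176 CPM in WT H3 and 93.1 and 159.9 CPM in WT H4. STE2 (YFL026W, chrVI:82580-83875), the receptor for alpha-factor, had 119 CPM in H3E50A, 31.2 and 2.68 CPM in H4K16Q and 14.1 and 4.59 CPM in H4H18A, beside 262 CPM in WT H3 and 76.3 and 265 CPM in WT H4. For these 3 genes H3E50A was 6.79-, 7.05- and 3.82-fold above the nearest H4 mutant library, and STE2 and BAR1 were higher in WT H3 than in H3E50A. AGA2, the binding subunit of a-agglutinin, had 49.3 CPM in H3E50A, 5.64 and 2.97 CPM in H4K16Q and 9.41 and 4.59 CPM in H4H18A, beside 27.3 CPM in WT H3 and 25.9 and 62.4 CPM in WT H4. AXL1, a protease of a-factor maturation that is haploid-specific rather than a-specific but stands in the list, had 139 CPM in H3E50A, 27.6 and 14.6 CPM in H4K16Q and 16.5 and 20.6 CPM in H4H18A, beside 94.4 CPM in WT H3 and 74.2 and 126 CPM in WT H4. ASG7, which acts on the pheromone receptor pathway, had 14.7 CPM in H3E50A, 4.63 and 3.57 CPM in H4K16Q and 2.35 and 4.59 CPM in H4H18A, beside 5.21 CPM in WT H3 and 30.2 and 13 CPM in WT H4, and its Poisson interval overlapped those of the H4H18A libraries.

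All 8 genes of the list, AXL1 included, were above the range, and all 8 were clear above it, beside 31.3% and 5.7% of all genes. The median difference of the list, H3E50A minus the mean of the 4 H4 mutant libraries, was 3.46 log2 units, beside 0.14 over all genes. Measured from the same mean, the list's median was 0.85 and -0.67 in H4K16Q and 0.56 and -0.35 in H4H18A, and 3.99 in WT H3 and 2.95 and 4.02 in WT H4. The H3E50A library thus stood with the 3 WT libraries for this list, and the 4 H4 mutant libraries below all of them. In these bulk samples fewer cells that express the genes and less RNA per cell cannot be told apart.

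HIS3 gave a second reading of the MFA1 promoter, since the strains carry HIS3 under that promoter at can1 and have the native HIS3 deleted. HIS3 had 75.9 CPM in H3E50A, 17.3 and 15.2 CPM in H4K16Q and 28.2 and 0 CPM in H4H18A, beside 152 CPM in WT H3 and 68.5 and 161 CPM in WT H4. The value in H3E50A was 2.69-fold that of the highest H4 mutant library, H4H18A library 1, which had 12 counts. All 3 WT libraries were above the H4 mutant range as well. The readings differed against WT, since HIS3 was higher in WT H3 and WT H4 library 2 than in H3E50A, whereas MFA1 was highest in H3E50A.

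**Figure D2:**
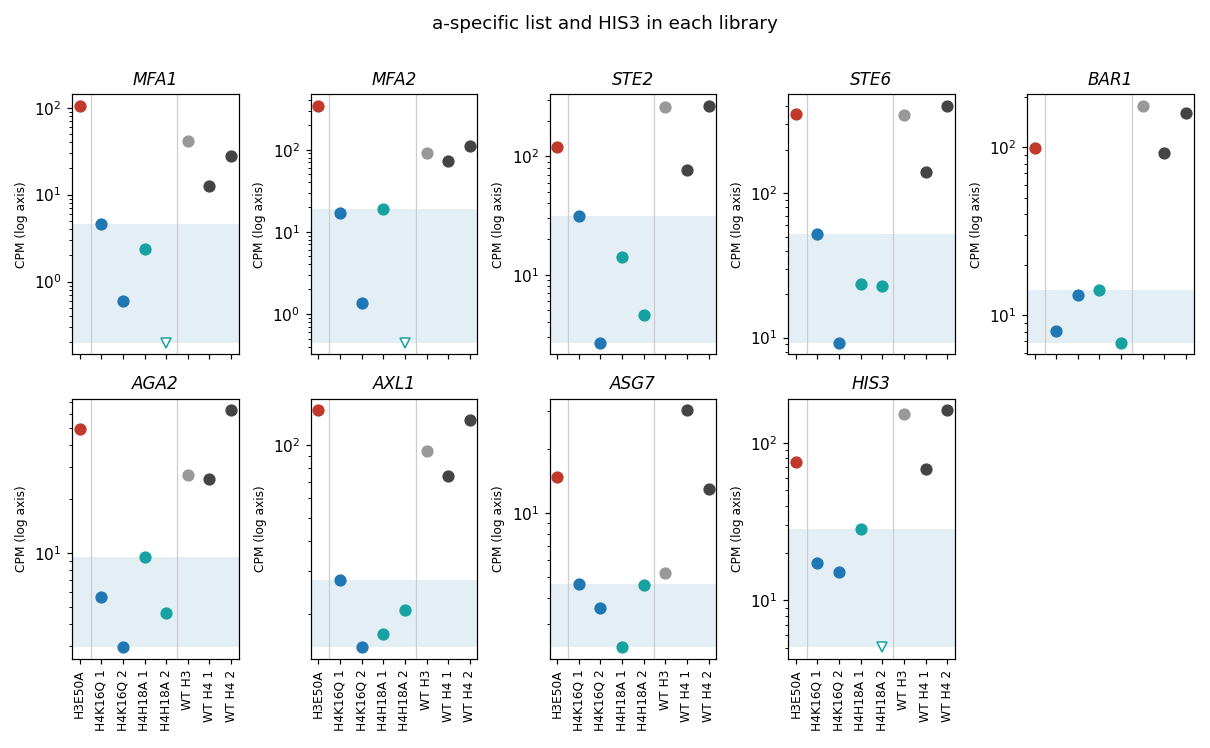
CPM (log axis) of the 8 genes of the a-specific list and of HIS3 in each library, with H3E50A in red, H4K16Q in blue, H4H18A in teal, WT H3 in light grey and WT H4 in dark grey. The shaded band is the range of the 4 H4 mutant libraries, an open triangle marks a library with 0 counts, and H3E50A lies above the band in every panel.

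The a-specific promoters are known for an operator bound by alpha2 and Mcm1, and these stretches are shown because 6 of the 8 genes of the list carry them. The operator was searched on both strands of the 500 bases before each start codon, in a wide form, made of TGT, any 5 bases, CC, any 6, GG, any 6 and ACA, and a narrow form with 5 in place of the last 6, both chosen after the values were seen. In the sequences, read from the R64 genome of RefSeq, the capitals are the fixed letters of the operator.
MFA1 (chrIV:1384944-1384970, plus strand): TGTaattaCCcaaaaaGGaaatttACA
MFA2 (chrXIV:352165-352191, plus strand): TGTatttaCCtattcgGGaaatttACA
STE2 (chrVI:82353-82379, minus strand): TGTacttaCCcaattaGGaaatttACA
STE6 (chrXI:46479-46505, minus strand): TGTaattaCCtaatagGGaaatttACA
BAR1 (chrIX:322080-322105, plus strand): TGTaattaCCgtaaaaGGaaattACA
AGA2 (chrVII:437104-437129, minus strand): TGTaatttCCgaatacGGtaattACA
The operators of MFA1 and STE6 lie 205 and 183 bases before the start codon, and that of AGA2 270 bases. The wide form was found in 7 of 5915 promoters and the narrow form in 6, and together they marked 6 of the 8 genes of the list, with no match for AXL1 and ASG7. The 7 other genes with a match were APL3, GYP8 and HSF1, above the range by gaps of 0.71, 0.55 and 0.49, HNT2, MPS2 and SWC5, inside it, and PBP2, below it by -0.68. GYP8 shares its promoter with STE2.

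Of the 28 genes of the pheromone pathway and other haploid-specific genes, 16 were above the range, 1 was below and 11 were inside. The shares of all genes were 31.3% above and 22.3% below. The median difference was 1.22, and the WT libraries had medians of 1.09 in WT H3 and 1.92 and 1.07 in WT H4. GPA1, the alpha subunit of the G protein coupled to the pheromone receptors, had 59.2 CPM in H3E50A, 11.4 and 11.9 CPM in H4K16Q and 11.8 and 4.59 CPM in H4H18A, beside 53.4 CPM in WT H3 and 18.5 and 80.6 CPM in WT H4. STE18, its gamma subunit, had 22.5 CPM in H3E50A, 3.83 and 0.149 CPM in H4K16Q and 0 and 0 CPM in H4H18A, beside 3.91 CPM in WT H3 and 15.5 and 3.25 CPM in WT H4. Both were clear above the range, whereas STE20, the kinase downstream of the G protein, had 190.3 CPM in H3E50A, against 125 and 191 CPM in H4K16Q and 162 and 151 CPM in H4H18A and lay inside it. The member below was PRM2, a membrane protein needed for nuclear fusion in mating, which had no count in H3E50A, against 15.7 and 12.2 CPM in H4K16Q and 18.8 and 13.8 CPM in H4H18A, and 16.9 CPM in WT H3 and 17.2 and 9.10 CPM in WT H4. PRM2 was thus at least 17.7-fold lower in H3E50A than in the nearest H4 mutant library, and lower than in each WT library.

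The alpha-specific genes did not form one pattern. SAG1, alpha-agglutinin, had 44 CPM in H3E50A, against 24 and 21.3 CPM in H4K16Q and 9.41 and 29.8 CPM in H4H18A and was above the range, MF(ALPHA)2 was below it with 3.67 CPM in H3E50A, against 6.73 and 5.65 CPM in H4K16Q and 11.8 and 6.88 CPM in H4H18A, and STE3 and MF(ALPHA)1 were inside. HMRA1 had 42.2 CPM in H3E50A, 22 and 8.77 CPM in H4K16Q and 9.41 and 0 CPM in H4H18A, beside 5.21 CPM in WT H3 and 27.8 and 7.80 CPM in WT H4. Its sequence is shared with the MATa1 gene of these MATa strains, so its counts are uncertain. HMLALPHA1, MATALPHA1 and the deleted LEU2 and TRP1 had no count in any library. MATALPHA2 had 6 counts in H3E50A, 13 and 1 in H4K16Q, 1 and 0 in H4H18A, 0 in WT H3 and 2 and 0 in WT H4. HMLALPHA2 had 1 count, in H4H18A library 2. The alpha genes of the cassettes share their sequence with the reference's MATalpha genes, so these counts are no measure of silencing.

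The proteins of silencing and of histone acetylation were mixed. Of 31 genes, 11 were above the range, 7 below and 13 inside, and the median difference of 0.07 was close to that of all genes. The shares above and below, 35.5% and 22.6%, were also near the 31.3% and 22.3% of all genes. SIR4 had 111 CPM in H3E50A, against 77.9 and 65.3 CPM in H4K16Q and 47.1 and 50.5 CPM in H4H18A, and was above the range by a gap of 0.50. SIR2, the deacetylase, had 34.2 CPM in H3E50A, against 24.6 and 23.6 CPM in H4K16Q and 4.71 and 25.2 CPM in H4H18A, and SIR3 had 48.6 CPM in H3E50A, against 51.7 and 32.4 CPM in H4K16Q and 42.4 and 27.5 CPM in H4H18A and lay inside. No member of the list was clear above, but 3 were without H4K16Q library 1. With libraries scaled to total counts alone 7 genes were above, 3 below and none clear below. DOT1, the methyltransferase of H3 lysine 79, and RTT109, an acetyltransferase of H3, were clear below, with 5.50 and 1.83 CPM in H3E50A, at 24 and 8 counts, and their Poisson intervals overlapped that of H4H18A library 1.

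Among the gene lists, those of the ribosomal proteins had the largest shares of their genes below. Of the 56 genes of the small subunit, 51 were below the range and 5 inside, and of the 81 of the large subunit, 76 were below, 4 inside and 1 above. In all 22.3% of genes were below. RPS22A (YJL190C, chrX:74910-75302) had 28 CPM in H3E50A, 312 and 430.4 CPM in H4K16Q and 254 and 287 CPM in H4H18A, beside 329 CPM in WT H3 and 28.5 and 266 CPM in WT H4. RPL8A (YHL033C, chrVIII:35255-36025) had 61.2 CPM in H3E50A, 489.6 and 890.4 CPM in H4K16Q and 466 and 534 CPM in H4H18A, beside 515 CPM in WT H3 and 23.9 and 434 CPM in WT H4. RPL3 had 517 CPM in H3E50A, 2880.4 and 6067 CPM in H4K16Q and 2899 and 1469 CPM in H4H18A, beside 1688 CPM in WT H3 and 580.1 and 1488 CPM in WT H4. H3E50A lay below the nearest H4 mutant library 9.09-fold for RPS22A, 7.61-fold for RPL8A and 2.84-fold for RPL3, and WT H4 library 1 was at a like level to H3E50A or below it, while the other WT libraries lay among or near the H4 mutants.

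The medians of the 2 lists make the same point. The median difference was -2.32 for the small subunit and -2.23 for the large. Measured from the same mean, the WT medians for the small subunit were -0.48 in WT H3 and -3.45 and -0.36 in WT H4, and those for the large subunit -0.41 in WT H3 and -3.17 and -0.53 in WT H4. Of the genes below, 43 of the small subunit and 61 of the large were clear, and for 35 and 44 the gap was larger than the whole range of the 4 H4 libraries. Most ribosomal proteins have 2 near-identical gene copies, so the split of reads between copies is uncertain, and RPS26A and RPS26B, which were 402 and 39 CPM in H3E50A, are such a pair.

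**Figure D3:**
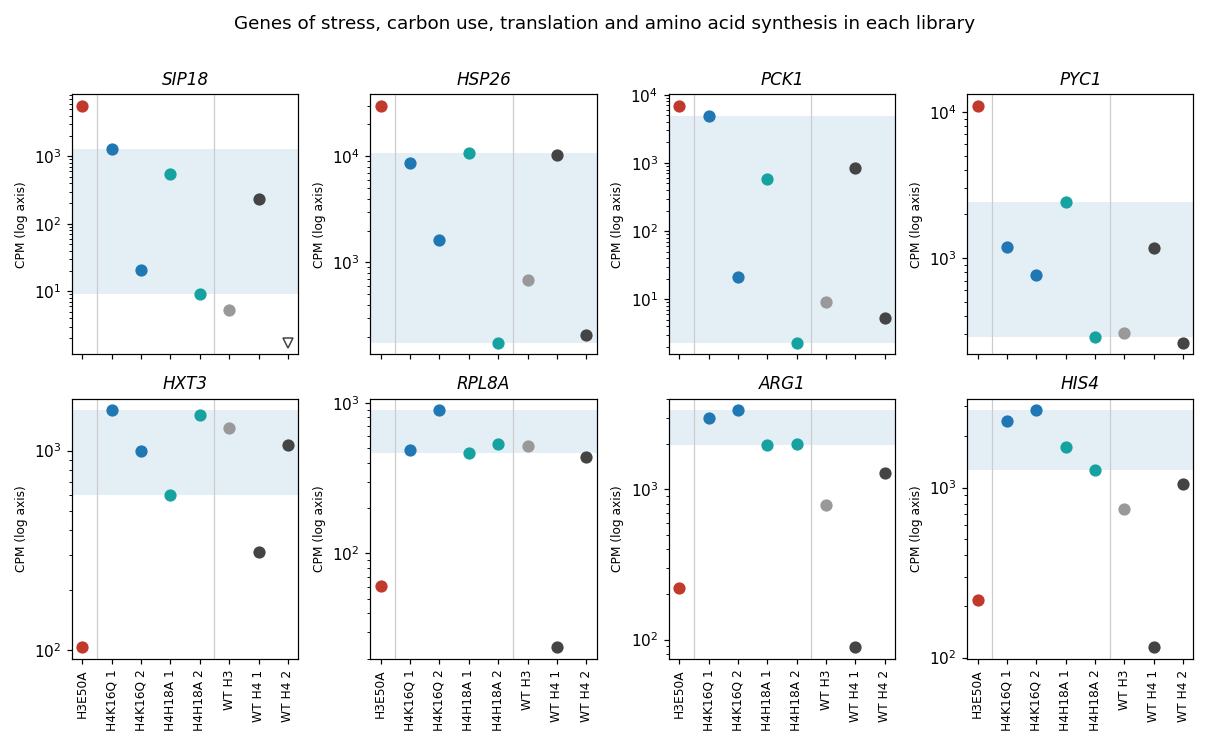
CPM (log axis) of 8 genes in each library, with the colours of the a-specific plot and the band for the range of the 4 H4 mutant libraries. SIP18, HSP26, PCK1 and PYC1 lie above the band in H3E50A, and HXT3, RPL8A, ARG1 and HIS4 below it, where WT H4 library 1 is also low.

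Genes that build the ribosome were lower too. Of 146 assembly factors, 98 were below, 47 inside and 1 above, with a median difference of -1.22. Among all genes 22.3% were below and 31.3% above. From the mean of the 4 H4 mutant libraries, the list's median was 0.18 in WT H3 and -0.97 and 0.70 in WT H4. With libraries scaled to total counts alone, 63 were below. NOP58, a core protein of the box C/D snoRNPs that guide rRNA methylation, had 28.4 CPM in H3E50A, 159 and 179 CPM in H4K16Q and 134 and 143 CPM in H4H18A, beside 163 CPM in WT H3 and 9.48 and 203 CPM in WT H4. DBP2, an RNA helicase of rRNA processing and mRNA decay, had 128 CPM in H3E50A, 571 and 757 CPM in H4K16Q and 471 and 549 CPM in H4H18A, beside 436 CPM in WT H3 and 144 and 525 CPM in WT H4. NOG2, a GTPase of large-subunit assembly, had 988 CPM in H3E50A, against 848 and 1249 CPM in H4K16Q and 923 and 417 CPM in H4H18A and lay inside the range. RNA polymerase I had 6 of 16 genes below and none above, but 12 were below without H4H18A library 1. Its subunits RPA49 and RPA135 had 5.73 and 112 CPM in H3E50A, and the nearest H4 mutant library was 6.57- and 2.23-fold higher. RPB10, a subunit shared by RNA polymerases I, II and III, had 4 counts in H3E50A, or 0.917 CPM in H3E50A, against 19.8 and 13.7 CPM in H4K16Q and 14.1 and 13.8 CPM in H4H18A. WT H4 library 1 was at 1.94 CPM for it and the other WT libraries at 11.1 and 26.6 CPM.

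The promoters of these genes are known for shared elements, shown here for 4 of the genes whose values are given above, all of them below the range. The PAC element, GATGAG, was found in 88.4% of the promoters of assembly factors and in 27.8% of all promoters, and the RRPE element, AAAAATTT, in 86.3% and 20.7%, over 500 bases on both strands. NOG2, which lay inside the range, carries both elements as well. The motif of Rap1, ACCCNNACA, occurred in 44.4% of the large-subunit and 32.1% of the small-subunit promoters and in 5.48% of all. Over the 454 genes clear below that have a promoter window, PAC was found in 34.8%, RRPE in 35.7% and Rap1 in 13.7%. The capitals mark the letters of PAC and RRPE, which read as their reverse complements where the element lies on the other strand, and those of Rap1.
NOP58 (chrXV:898474-898497, minus strand): ggaAAATTTTTcaacCTCATCgaa
DBP2 (chrXIV:413481-413505, plus strand): atgCTCATCgcagaAAATTTTTcct
RPA49 (chrXIV:182730-182755, minus strand): tgaAAATTTTTtattgcGATGAGctg
RPL8A (chrVIII:36250-36270, minus strand): gaaaacACCCaaACAtatcta

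Translation factors followed at a smaller size. Of 37 genes, 24 were below, 12 inside and 1 above, with a median difference of -0.81, and with libraries scaled to total counts alone 13 were below. Among all genes 22.3% were below and 31.3% above. Measured from the mean of the 4 H4 mutant libraries, the list's median was -0.08 in WT H3 and -1.92 and 0.03 in WT H4. YEF3, the elongation factor particular to fungi, had 937 CPM in H3E50A, 4889 and 11397 CPM in H4K16Q and 7079 and 5339.8 CPM in H4H18A, beside 5129.7 CPM in WT H3 and 308 and 4887 CPM in WT H4. TEF4, a subunit of the elongation factor 1B, had 168 CPM in H3E50A, against 638 and 1043 CPM in H4K16Q and 661 and 735 CPM in H4H18A, beside 595 CPM in WT H3 and 73.9 and 697 CPM in WT H4. TEF2, which encodes elongation factor 1 alpha, was below the range by a gap of only -0.05, with 2083 CPM in H3E50A, against 2378 and 12078 CPM in H4K16Q and 7267 and 2156 CPM in H4H18A.

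Genes of biosynthesis were lower as well. Of 84 genes of amino acid synthesis 51 were below, 29 inside and 4 above, or 10 above without H4K16Q library 1, and the median difference was -1.01. Among all genes 22.3% were below and 31.3% above. Measured from the mean of the 4 H4 mutant libraries, the list's median was -0.52 in WT H3 and -1.64 and -0.43 in WT H4. WT H4 library 1 was thus lower than H3E50A. The only clear gene above was HIS3, which these strains carry under the MFA1 promoter at can1. ARG1 (YOL058W, chrXV:219211-220473), argininosuccinate synthase, had 220.3 CPM in H3E50A, 2968 and 3354 CPM in H4K16Q and 1967 and 1992 CPM in H4H18A, beside 792 CPM in WT H3 and 89.2 and 1280.4 CPM in WT H4. HIS4, an enzyme of histidine synthesis, had 219 CPM in H3E50A, 2477 and 2842 CPM in H4K16Q and 1737 and 1278 CPM in H4H18A, beside 749 CPM in WT H3 and 116 and 1049 CPM in WT H4. The nearest H4 mutant library was 8.93-fold higher for ARG1 and 5.84-fold higher for HIS4, and every WT library was below all 4 H4 mutant libraries in both genes. GLN1, glutamine synthetase, lay inside the range, with 2086 CPM in H3E50A, against 1591 and 4061 CPM in H4K16Q and 3970.2 and 1843 CPM in H4H18A. The motif of Gcn4, the activator of amino acid synthesis, is TGACTCA. It was present in 44.0% of the promoters of this list, in 9.91% of those of genes clear below, and in 4.06% of all promoters.
ARG1 (chrXV:218860-218878, plus strand): ttttagTGACTCAtgtcgc
HIS4 (chrIII:68520-68538, minus strand): gcacagTGACTCAcgtttt

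Purine synthesis was lower in 22 of 28 genes, with 5 inside and 1 above and a median difference of -1.40. The shares of all genes were 22.3% below and 31.3% above. From the mean of the 4 H4 mutant libraries, the list's median was 0.06 in WT H3 and -1.83 and 0.05 in WT H4. IMD2 and IMD4 encode IMP dehydrogenase, the first step to GMP. IMD2 had 32.3 CPM in H3E50A, 181 and 604 CPM in H4K16Q and 282 and 194 CPM in H4H18A, beside 194 CPM in WT H3 and 12.1 and 119 CPM in WT H4. IMD4 had 44.7 CPM in H3E50A, against 326 and 649 CPM in H4K16Q and 320.1 and 237 CPM in H4H18A, and ADE3, a folate enzyme of the pathway, had 443 CPM in H3E50A, against 1121 and 3219 CPM in H4K16Q and 2142 and 1752 CPM in H4H18A. For IMD4 WT H3 had 244 CPM and WT H4 32.1 and 268 CPM, and for ADE3 WT H3 had 1341 CPM and WT H4 564 and 1115 CPM. Ergosterol synthesis had 15 of 29 genes below, 11 inside and 3 above, and 10 below with libraries scaled to total counts alone. Its median from the same mean was -0.64 in H3E50A, 0.07 in WT H3 and -1.17 and -0.19 in WT H4. ERG2, a sterol isomerase, had 53.9 CPM in H3E50A, against 203 and 278 CPM in H4K16Q and 165 and 335 CPM in H4H18A, beside 249 CPM in WT H3 and 8.41 and 155 CPM in WT H4.

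Respiration genes lay on the upper side. All 17 nuclear genes of the ATP synthase were above the range, with a median difference of 2.07. So were 15 of 21 genes of the tricarboxylic acid cycle, 12 of 17 of the cytochrome bc1 complex and cytochrome c, 8 of 10 of cytochrome c oxidase, and 14 of 20 of the NADH dehydrogenases, shuttles and carriers. Their median differences were 1.95, 1.92, 2.03 and 2.03. Among all genes 31.3% were above, 22.3% below and 5.7% clear above. The median over all genes was 0.14, and 14 of the 17 ATP synthase genes were clear above, or 9 with libraries scaled to total counts alone. In the order named, the gap exceeded the width of the H4 range in only 3, 5, 2, 2 and 1 genes of these lists. H4H18A library 2 had the lowest median of the H4 libraries in each list, and it lowers the mean used here. Its medians, in the same order, were -0.83, -1.21, -0.63, -1.08 and -1.30.

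The named genes of respiration show how the libraries lay. ATP2, the beta subunit of the ATP synthase, had 6283 CPM in H3E50A, 1972 and 3248 CPM in H4K16Q and 3417 and 836 CPM in H4H18A, beside 1336 CPM in WT H3 and 2886 and 898 CPM in WT H4. ATP7, of its stalk, had 1114 CPM in H3E50A, 313 and 119 CPM in H4K16Q and 160.0 and 99.8 CPM in H4H18A, beside 116 CPM in WT H3 and 246 and 107 CPM in WT H4. ACO1, aconitase, had 5366 CPM in H3E50A, 1923 and 1238 CPM in H4K16Q and 1337 and 479 CPM in H4H18A, beside 566 CPM in WT H3 and 773 and 522 CPM in WT H4. In all 3 genes H3E50A was above every other library, the WT libraries included. COR1, a core subunit of the bc1 complex, had 2059 CPM in H3E50A, 420.4 and 534 CPM in H4K16Q and 661 and 205 CPM in H4H18A, beside 287 CPM in WT H3 and 778 and 269 CPM in WT H4. COX8, a subunit of cytochrome c oxidase, had 226 CPM in H3E50A, 56.7 and 10.3 CPM in H4K16Q and 18.8 and 20.6 CPM in H4H18A, beside 41 CPM in WT H3 and 27.6 and 20.8 CPM in WT H4. DLD1, D-lactate dehydrogenase, had 2559 CPM in H3E50A, 221 and 443 CPM in H4K16Q and 565 and 161 CPM in H4H18A, beside 142 CPM in WT H3 and 571 and 94.9 CPM in WT H4. H3E50A exceeded the nearest H4 mutant library 3.11-fold for COR1, 3.99-fold for COX8 and 4.53-fold for DLD1.

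Some genes of these pathways were not above the range. Of the tricarboxylic acid cycle list 3 genes were below and 3 inside, and of the dehydrogenases and carriers 3 were below and 3 inside. The 70 genes of the mitochondrial ribosome had 49 above, 21 inside and none below, with a median difference of 0.91 and 8 clear genes. Beside them stand 31.3% of all genes above and 22.3% below. Of these genes 14 were clear without H4H18A library 1, 13 without H4H18A library 2 and 13 with libraries scaled to total counts alone, and 2 were below without H4K16Q library 1. MRPL35, one of its large-subunit proteins, had 97.7 CPM in H3E50A, against 36.2 and 35 CPM in H4K16Q and 32.9 and 32.1 CPM in H4H18A. For the mitochondrial ribosome the medians of the WT libraries were 0.04 in WT H3 and 0.31 and 0.03 in WT H4, and the H4 mutant libraries' were -0.22 and 0.01 in H4K16Q and 0.20 and 0.07 in H4H18A. The 8 proteins encoded in the mitochondrial genome had no count in any library.

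**Figure D4:**
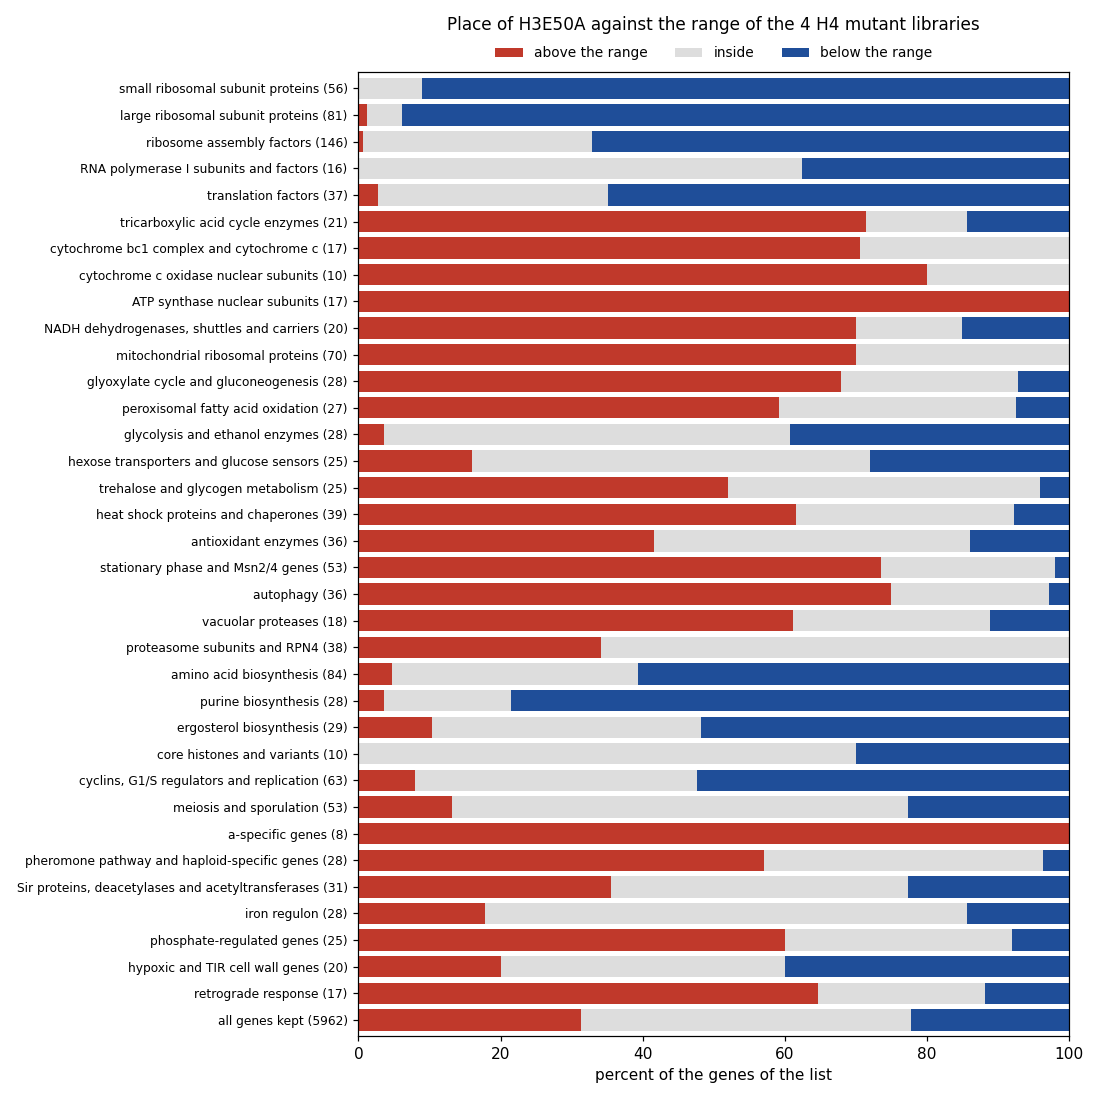
Percent of the genes of each list (kept genes in brackets) for which H3E50A lay above (red), inside (grey) or below (blue) the range of the 4 H4 mutant libraries. The ATP synthase and a-specific lists are wholly above, the ribosomal protein lists almost wholly below, and the last bar gives all 5962 genes for comparison.

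Genes for carbon sources other than glucose were higher, but the H4 mutant libraries also lay far apart in them. Of 28 genes of the glyoxylate cycle and gluconeogenesis, 19 were above, 7 inside and 2 below, and 7 were clear above, or 14 without H4K16Q library 1. The shares of all genes were 31.3% above, 22.3% below and 5.7% clear above. The median difference was 2.46. PCK1, the key enzyme of gluconeogenesis, had 6833 CPM in H3E50A, 4943 and 21.1 CPM in H4K16Q and 579 and 2.29 CPM in H4H18A, beside 9.12 CPM in WT H3 and 829 and 5.20 CPM in WT H4. FBP1, fructose-1,6-bisphosphatase, had 1944 CPM in H3E50A, 565 and 16.4 CPM in H4K16Q and 132 and 2.29 CPM in H4H18A, beside 7.81 CPM in WT H3 and 175 and 13 CPM in WT H4. The first library of each H4 mutant was high and the second low, and H3E50A was only 1.38-fold above the highest for PCK1. In no gene of this list did the gap exceed the width of the H4 range. CAT8, the activator of these genes, had 1114 CPM in H3E50A, 264 and 105 CPM in H4K16Q and 264 and 61.9 CPM in H4H18A, beside 67.7 CPM in WT H3 and 383 and 41.6 CPM in WT H4.

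PYC1, pyruvate carboxylase, replenishes oxaloacetate for the tricarboxylic acid cycle and gluconeogenesis. PYC1 had 10947 CPM in H3E50A, 1180.2 and 764 CPM in H4K16Q and 2398 and 287 CPM in H4H18A, beside 309 CPM in WT H3 and 1176 and 263 CPM in WT H4, and was 4.57-fold above the nearest H4 mutant library. The element of gluconeogenic genes, made of CC, any base, TT, any 3 bases and CCG, was found in 35.7% of the promoters of the glyoxylate list and in 2.62% of all promoters, here with its fixed letters, or their reverse complement, in capitals.
PCK1 (chrXI:630785-630805, plus strand): ataggCGGataAAgGGcccaa
ACH1 (chrII:193785-193805, plus strand): cccgcCGGgccAAaGGcgggc
ACH1, which moves CoA onto acetate, had 6275 CPM in H3E50A, 2182 and 367 CPM in H4K16Q and 1859 and 57.3 CPM in H4H18A, beside 94.4 CPM in WT H3 and 1809.8 and 50.7 CPM in WT H4. Peroxisomal fatty acid oxidation had 16 of 27 genes above, 9 inside and 2 below, with a median difference of 1.05 and 1 clear gene, or 7 clear genes above without H4K16Q library 1. Among all genes 31.3% were above and 22.3% below. From the mean of the 4 H4 mutant libraries, the list's median was -0.28 in WT H3 and 1.17 and -0.36 in WT H4.

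Glucose uptake and glycolysis held genes on both sides of the range. Of 25 genes of hexose transport 4 were above, 7 below and 14 inside, where 31.3% of all genes were above and 22.3% below, and 11 were below without H4H18A library 1. HXT3, a low-affinity glucose transporter, had 104 CPM in H3E50A, 1588 and 997 CPM in H4K16Q and 598 and 1512 CPM in H4H18A, beside 1299.7 CPM in WT H3 and 311 and 1069.8 CPM in WT H4. HXT2, a high-affinity one, had 17 CPM in H3E50A, 253 and 162 CPM in H4K16Q and 80.02 and 98.6 CPM in H4H18A, beside 161 CPM in WT H3 and 78 and 81.9 CPM in WT H4. HXT5, the transporter of slow growth, was above the range with 6214 CPM in H3E50A, 2125 and 331 CPM in H4K16Q and 2186 and 35.6 CPM in H4H18A, beside 54.7 CPM in WT H3 and 3183 and 37 CPM in WT H4. Of 28 genes of glycolysis and ethanol metabolism 11 were below, 16 inside and 1 above. From the mean of the 4 H4 mutant libraries, their median was -0.87 in H3E50A, -0.59 in WT H3 and -1.31 and -1.115 in WT H4. HXK2, the main hexokinase on glucose, had 87.4 CPM in H3E50A, 360.4 and 1149.9 CPM in H4K16Q and 682 and 484 CPM in H4H18A, beside 879 CPM in WT H3 and 25 and 639.5 CPM in WT H4, and PDC1, pyruvate decarboxylase, had 5599.6 CPM in H3E50A, against 13589 and 50123 CPM in H4K16Q and 30156 and 12471 CPM in H4H18A. TDH3, glyceraldehyde-3-phosphate dehydrogenase, was inside with 13037 CPM in H3E50A, against 12794 and 41519 CPM in H4K16Q and 23442 and 10686 CPM in H4H18A.

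Stress genes were mostly higher. Of 53 genes of the stationary phase and of Msn2 and Msn4, the activators of the general stress response, 39 were above, 13 inside and 1 below, with a median difference of 1.60 and 10 clear genes. Among all genes 31.3% were above and 22.3% below. From the mean of the 4 H4 mutant libraries, the list's median was -1.37 in WT H3 and 1.28 and -1.69 in WT H4. The clear genes numbered 20 without H4K16Q library 1, 18 without H4H18A library 1 and 5 without ribosomal RNA features. SIP18 (YMR175W, chrXIII:611016-611255), a hydrophilin of dehydration, had 5531 CPM in H3E50A, 1260.1 and 20.4 CPM in H4K16Q and 555 and 9.17 CPM in H4H18A, beside 5.21 CPM in WT H3 and 233 and 0 CPM in WT H4. GRE1, a related hydrophilin, had 7035 CPM in H3E50A, 3737 and 111 CPM in H4K16Q and 2615 and 14.9 CPM in H4H18A, beside 11.1 CPM in WT H3 and 1056 and 5.20 CPM in WT H4. SIP18 was 4.39-fold and GRE1 1.88-fold above the nearest H4 mutant library. The second library of each H4 mutant was far below the first in both genes. The gap exceeded the width of the H4 range in 1 gene of the list. YMR175W-A, 248 CPM in H3E50A, lies just downstream of SIP18.

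HSP26 and HSP12 encode small heat shock proteins. HSP26 had 29769 CPM in H3E50A, 8586 and 1624 CPM in H4K16Q and 10781 and 175 CPM in H4H18A, beside 679 CPM in WT H3 and 10263 and 209 CPM in WT H4. HSP12 had 29594 CPM in H3E50A, 7073 and 3678 CPM in H4K16Q and 15104 and 586 CPM in H4H18A, beside 469 CPM in WT H3 and 11591 and 257 CPM in WT H4. H3E50A was above every other library in both, and the H4H18A libraries differed from each other far more than H3E50A differed from the higher of them. Of 39 heat shock and chaperone genes 24 were above, 12 inside and 3 below, beside 31.3% of all genes above and 22.3% below. SSB1, a chaperone that works on the ribosome, was clear below with 190.1 CPM in H3E50A, 876 and 3290.2 CPM in H4K16Q and 1800.3 and 568 CPM in H4H18A, beside 882 CPM in WT H3 and 57.3 and 794 CPM in WT H4. The stress element AGGGG was found in 64.2% of the promoters of the stationary phase list, in 48.7% of those of genes clear above, in 26.4% of those of genes clear below and in 34.4% of all promoters. The element also lies before a gene of this list that was inside the range. The letters of the element, or their reverse complement, are in capitals.
SIP18 (chrXIII:610639-610659, plus strand): tttcggtaCCCCTttaagaca
PAI3 (chrXIII:610482-610502, minus strand): ggaatctcAGGGGcgaccgcc
PAI3, an inhibitor of proteinase A, had 387 CPM in H3E50A, 103 and 11 CPM in H4K16Q and 136 and 14.9 CPM in H4H18A, beside 7.81 CPM in WT H3 and 42.7 and 17.5 CPM in WT H4.

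Of the stress and retrograde genes that the study picked out, MSN4 and SOD2 were above the range and MSN2, SOD1 and CIT2 inside it. MSN4 had 346 CPM in H3E50A, 212 and 199 CPM in H4K16Q and 141 and 112 CPM in H4H18A, beside 103 CPM in WT H3 and 56.9 and 94.9 CPM in WT H4. SOD2, the mitochondrial superoxide dismutase, had 1883 CPM in H3E50A, 958 and 1331 CPM in H4K16Q and 1294 and 209 CPM in H4H18A, beside 257 CPM in WT H3 and 1837 and 188 CPM in WT H4. MSN2 had 88 CPM in H3E50A, against 90.01 and 70.6 CPM in H4K16Q and 80.02 and 95.2 CPM in H4H18A, a spread within which H3E50A lay near the middle. CIT2, the peroxisomal citrate synthase and marker of the retrograde response, had 1494 CPM in H3E50A, 1794 and 368 CPM in H4K16Q and 1174 and 94 CPM in H4H18A, beside 83.3 CPM in WT H3 and 2229 and 42.2 CPM in WT H4, so that 1 H4K16Q library was above H3E50A and 1 far below. Over the 17 genes of the retrograde response 11 were above, 4 inside and 2 below, or 8 above with libraries scaled to total counts alone. The shares of all genes were 31.3% above and 22.3% below. IDH1, of the isocitrate dehydrogenase, had 1168 CPM in H3E50A, against 257 and 266 CPM in H4K16Q and 278 and 80.3 CPM in H4H18A.

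Autophagy genes lay mostly above the range, and proteasome genes mostly inside it. Of 36 autophagy genes 27 were above, 8 inside and 1 below, with a median difference of 1.18. From the mean of the 4 H4 mutant libraries, the list's median was -0.18 in WT H3 and 1.05 and -0.36 in WT H4. ATG8, the ubiquitin-like protein of the autophagosome, had 128 CPM in H3E50A, 53.3 and 12.2 CPM in H4K16Q and 16.5 and 13.8 CPM in H4H18A, beside 7.16 CPM in WT H3 and 69 and 3.90 CPM in WT H4. ATG17, a scaffold of its starting complex, had 22 CPM in H3E50A, against 7.96 and 5.65 CPM in H4K16Q and 4.71 and 2.29 CPM in H4H18A. Of 38 proteasome genes 13 were above and 25 inside, or 8 above without ribosomal RNA features, with a median difference of 0.33. Over all genes 31.3% were above and 22.3% below, and the 34.2% of proteasome genes above was near that share. Of 18 vacuolar protease genes 11 were above, 5 inside and 2 below. Trehalose and glycogen genes had 13 of 25 above, and TSL1 and TPS1, of trehalose synthesis, lay inside. TPS1 had 1121 CPM in H3E50A, against 715 and 1188 CPM in H4K16Q and 1231 and 404 CPM in H4H18A. Of 36 antioxidant genes 15 were above (41.7%), 16 inside and 5 below (13.9%), or 2 below with libraries scaled to total counts alone. PRX1, the mitochondrial peroxiredoxin, had 850.1 CPM in H3E50A, against 329 and 229 CPM in H4K16Q and 367 and 50.5 CPM in H4H18A.

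Cell cycle genes lay mainly on the lower side. Of 63 cyclins, G1/S regulators and replication genes, 33 were below, 25 inside and 5 above. With libraries scaled to total counts alone 24 were below. The shares of all genes were 22.3% below and 31.3% above. NRM1, a repressor of G1/S transcription, had no count in H3E50A, against 12.7 and 37.5 CPM in H4K16Q and 37.7 and 25.2 CPM in H4H18A, and 50.8 CPM in WT H3 and 9.48 and 39 CPM in WT H4. It was at least 18.4-fold lower than in the nearest H4 mutant library. PCL1, a G1 cyclin of Pho85, had 3.67 CPM in H3E50A, 33.9 and 51.8 CPM in H4K16Q and 35.3 and 48.2 CPM in H4H18A, beside 69 CPM in WT H3 and 10.1 and 80.6 CPM in WT H4. KIN3, a protein kinase, had no count in H3E50A, 18.7 and 19.6 CPM in H4K16Q and 7.06 and 21.8 CPM in H4H18A, and was at least 10.3-fold lower, where the nearest H4 library held 3 counts. The RNR2 and RNR4 subunits of ribonucleotide reductase were inside the range. Of the members below, 35 had no count in H3E50A.

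Other genes with the largest gaps fell outside these lists. INA1 had 18.3 CPM in H3E50A, 690.4 and 314 CPM in H4K16Q and 233 and 377 CPM in H4H18A, beside 309 CPM in WT H3 and 28.7 and 434 CPM in WT H4. UTR2, a cell wall transglycosylase, had 16 CPM in H3E50A, 207 and 311 CPM in H4K16Q and 268 and 209 CPM in H4H18A, beside 299.5 CPM in WT H3 and 33.2 and 249.6 CPM in WT H4. WT H4 library 1 was low in both, as H3E50A was. MKC7, an aspartyl protease of the cell surface, had 2.52 CPM in H3E50A, against 39.5 and 59.6 CPM in H4K16Q and 28.2 and 131 CPM in H4H18A, and GIM3, a prefoldin subunit, had 1.83 CPM in H3E50A, against 42.9 and 21.3 CPM in H4K16Q and 28.2 and 84.9 CPM in H4H18A. For MKC7 WT H3 had 78.8 CPM and WT H4 32.8 and 115 CPM, and for GIM3 WT H3 had 41 CPM and WT H4 3.88 and 64.3 CPM. INM1, an inositol monophosphatase, and DCD1, dCMP deaminase, had 2 counts each in H3E50A, and at least 6 and 16 in each H4 library. On the upper side PCL7, a cyclin of Pho85, had 227 CPM in H3E50A, 32.8 and 28.4 CPM in H4K16Q and 28.2 and 26.4 CPM in H4H18A, beside 37.8 CPM in WT H3 and 106 and 37 CPM in WT H4. NCE103, carbonic anhydrase, had 912 CPM in H3E50A, 139 and 21.7 CPM in H4K16Q and 127 and 27.5 CPM in H4H18A, beside 13.7 CPM in WT H3 and 30.4 and 24.7 CPM in WT H4, so that H3E50A was above all 7 other libraries. ICS2 had 157 CPM in H3E50A, 13.5 and 9.37 CPM in H4K16Q and 14.1 and 4.59 CPM in H4H18A, beside 33.2 CPM in WT H3 and 70.7 and 53.3 CPM in WT H4, and AIM33 had 84.8 CPM in H3E50A, against 15.5 and 9.22 CPM in H4K16Q and 14.1 and 6.88 CPM in H4H18A.

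Nutrient regulons outside carbon varied, and the lists here stand beside 31.3% of all genes above and 22.3% below. Of 25 phosphate-regulated genes 15 were above, 8 inside and 2 below, and 10 were above with libraries scaled to total counts alone. PHO84, the high-affinity phosphate transporter, had 847 CPM in H3E50A, 313 and 271 CPM in H4K16Q and 212 and 388 CPM in H4H18A, beside 129.6 CPM in WT H3 and 22.4 and 295 CPM in WT H4. PHM8, a phosphatase of low phosphate, had 215 CPM in H3E50A, 56.3 and 21 CPM in H4K16Q and 47.1 and 9.17 CPM in H4H18A, beside 10.4 CPM in WT H3 and 94.8 and 3.90 CPM in WT H4. Of 28 genes of the iron regulon 5 were above, 4 below and 19 inside, and 13 were above without H4K16Q library 1. Of 20 hypoxic and cell wall mannoprotein genes 4 were above, 8 below and 8 inside. TIR1 and TIR3 are such mannoproteins. TIR1 had 18.8 CPM in H3E50A, against 285 and 205 CPM in H4K16Q and 148 and 48.2 CPM in H4H18A, and TIR3 had 1.38 CPM in H3E50A, against 35 and 37.3 CPM in H4K16Q and 14.1 and 16.1 CPM in H4H18A. For TIR1 WT H3 had 66.4 CPM and WT H4 0.647 and 45.5 CPM, and for TIR3 WT H3 had 9.12 CPM and WT H4 0 and 18.8 CPM. Of 53 genes of meiosis and sporulation 7 were above, 12 below and 34 inside. The share below, 22.6%, was near that of all genes. Without H4H18A library 1, 11 were above, and where a mean level of 10 CPM was required 2 were below. The list had a median difference of 0.06 in H3E50A and of 2.01 in WT H4 library 1. Among the core histone genes 3 of 10 were below and 7 inside. HTB2 had 64.7 CPM in H3E50A, against 305 and 509 CPM in H4K16Q and 282 and 335 CPM in H4H18A and was the only one clear below. Its WT levels were 290.4 CPM in WT H3 and 60.4 and 281 CPM in WT H4. Without H4H18A library 2, 5 were below and 2 clear. HTA1 had 507 CPM in H3E50A, against 427 and 957 CPM in H4K16Q and 548 and 181 CPM in H4H18A and lay inside.

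**Figure D5:**
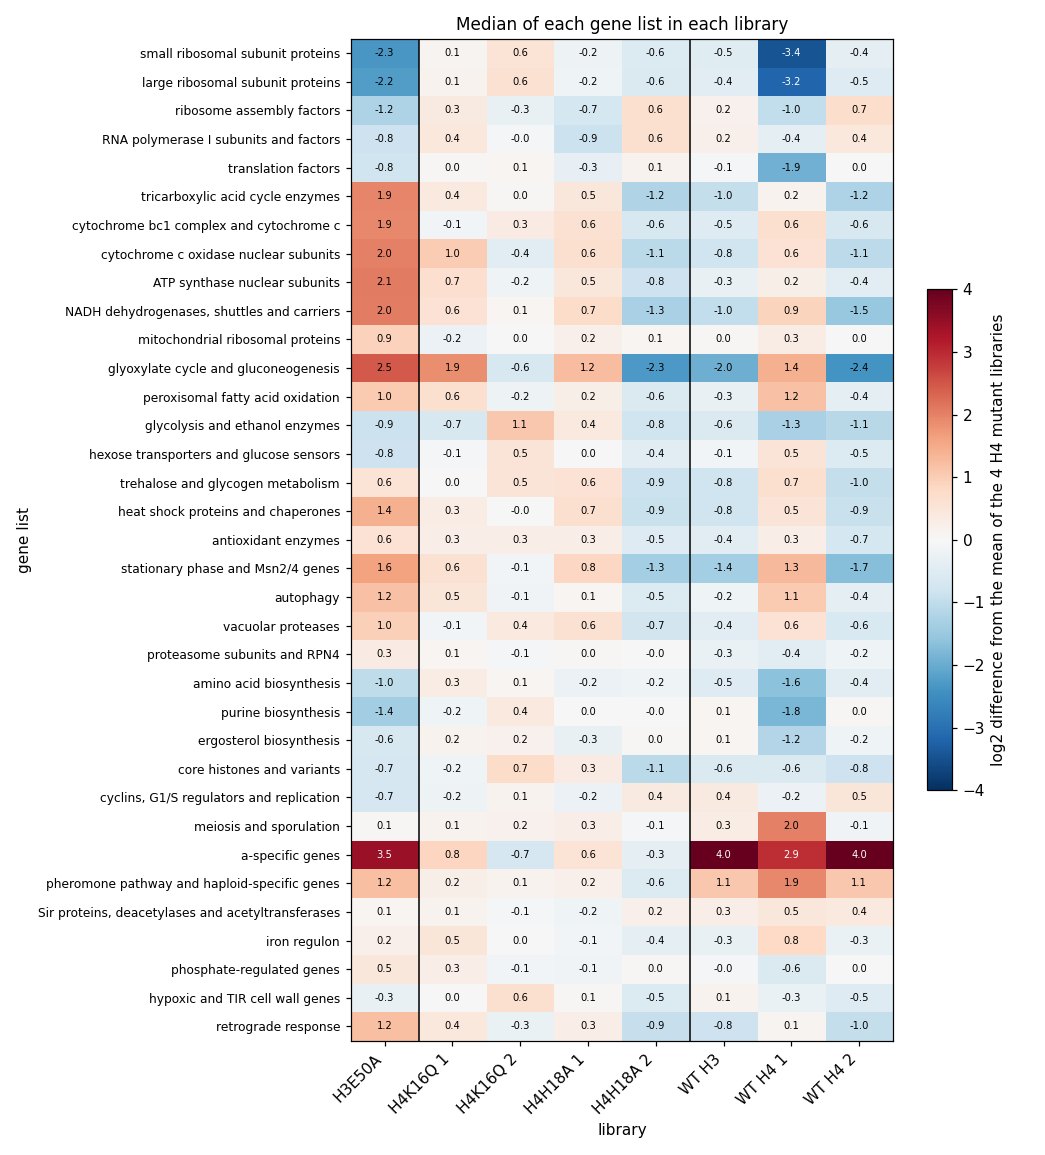
Median log2 difference of each gene list in each library, measured from the mean of the 4 H4 mutant libraries, with H3E50A in the first column, the H4 mutants next and the WT libraries last. The a-specific list is positive in H3E50A and in all 3 WT libraries (3.46, 3.99, 2.95 and 4.02), whereas the ribosomal protein lists are at -2.32 and -2.23 in H3E50A and -3.45 and -3.17 in WT H4 library 1, and between -0.57 and 0.61 in the other libraries.

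The clear members were also read in the WT libraries. For the 464 genes clear below in H3E50A, the median difference from the mean of the H4 mutants was -2.21 in H3E50A, -0.08 in WT H3, and -2.05 and -0.06 in WT H4 libraries 1 and 2. For the 340 genes clear above, it was 2.13 in H3E50A, -0.25 in WT H3, and 1.07 and -0.31 in WT H4. WT H4 library 1 thus lay on the side of H3E50A in the median of both sets, and WT H4 library 2 and WT H3 lay near the H4 mutants. The totals of H3E50A and WT H4 library 1 were also close, at 4256296 and 4296089 counts, and their ribosomal RNA shares were 1.88% and 0.990%, whereas WT H3 and WT H4 library 2 had 33.9% and 21.2%. The ribosomal RNA shares of the H4K16Q libraries were lower still. In another feature, YGL088W, the make-up differed, as it took 3.82% of the counts in H3E50A and 22.9% in WT H4 library 1. It took 1.39% and 3.55% in H4K16Q and 15.7% and 0.372% in H4H18A. In WT H3 it took 1.07%, and in WT H4 library 2 1.14%. The part of these properties in the members was not tested, and with 1 H3E50A library strain and library cannot be told apart.

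The position, length and level of the members were described last. Within 20 kb of a chromosome end lay 2.97% of the genes above, 3.0% of those below and 3.70% of those inside, of the genes with a position in R64. The median coding length was 1318.5 bases above, 1238.5 below and 1146 inside. Clear genes were more frequent among strongly expressed genes. In the upper tertile of genes by mean level 7.49% were clear above and 12.3% clear below, and in the lower tertile 4.53% and 5.89%.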

How the data were processed

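RNA of cultures grown for 16 h was sequenced from kits for stranded total RNA, and 8 libraries were used. The authors trimmed reads with Trim Galore, mapped them with STAR to R64 and used featureCounts to count them by gene, per the labels. The deposited values are whole-number counts for 6600 features, without normalization. Tool versions and the strand setting of the counting are not given in the sources used here, so antisense and overlapping genes, and near-identical ribosomal protein copies, may not be separated. Tables from edgeR with the authors' log2 fold changes and p-values, each for 1 mutant against 1 WT library, were not used.

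Low genes were removed with filterByExpr of edgeR 4.0.16 in R 4.3.3 (min.count 10, min.total.count 15), and libraries were scaled by TMM. Differences are on the log2 CPM scale with a prior count of 2. No gene was tested for H3E50A, which has 1 library, and levels are given per library. Depth lay between 621770 and 10529401 counts. Of the features, 5917 matched RefSeq's R64 annotation. Features of the mitochondrial genome had no count, 11 overlap ribosomal RNA genes, and the ChIP-seq and lifespan experiments were not analysed here.

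Gene lists and members were chosen with earlier results of these data known. The 178 named genes were the 12 largest gaps on each side at a mean of at least 10 CPM, the 2 highest levels and 2 largest gaps of each of the 38 lists with at least 5 kept genes, the genes of the genotype, the study and mating, SIR2, SIR3 and SIR4, and 3 genes on each side of each limit of a clear gap. Genes with an operator match were named after their values were seen. Not all of the named genes are described, and 1 of them is not reported here. Alternatives were RLE, total counts, TMM from 5 libraries, no filter, a mean of 10 CPM, no ribosomal RNA features, thinning to 621770 counts, prior count 0.25, each H4 library left out and each H4 strain alone.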

Additional observations from a re-analysis of the deposited data

How the results depend on the processing

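No paired analysis was possible because H3E50A has 1 library and the counts come from no test. With the H4K16Q libraries alone, 2031 genes were below, 576 clear above and 740 clear below, and with the H4H18A libraries alone 737 were clear above, where a range of 2 libraries is narrower by construction. Leaving out 1 H4 library at a time gave 2012 to 2175 genes above, 1435 to 1696 below, 388 to 550 clear above and 501 to 609 clear below. The clear genes above numbered 550 without H4K16Q replicate 1. In criteria chosen after seeing the data, 815 genes above and 578 below stood apart by Poisson intervals, and 311 and 408 had a gap wider than the range. All other counts stayed within 1.5 times of 1869 above, 1328 below, 340 clear above and 464 clear below. In that order they were 1658, 1456, 265 and 506 without ribosomal RNA features, and 1726, 1383, 287 and 424 after thinning. The genes behind a like count were not always the same. With total counts alone 83.3% of the genes above and 71.8% of those below were found again. For the clear genes these shares were 65.0% and 68.3%, and after thinning 72.4% and 72.8%. Total counts alone shifted the median difference of all genes to 0.29, beside 0.14, and made the genes below 40 of 84 for amino acid synthesis and 24 of 63 for the cell cycle list, and those above 12 of 27 for peroxisomal, 10 of 25 for phosphate-regulated and 8 of 17 for retrograde genes. CAN1, at 7 counts in H3E50A, changed sign to -0.27 after thinning, and no median of a list with most genes on one side changed sign. A filter set without H3E50A, also chosen after seeing the data, removed 179 genes, of which 46 were above and 8 below. The H4H18A libraries limit the depth, at 7.06 and 3.44 CPM for 3 counts.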
